A study of Homo sapiens with 45 samples.

Results

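The 10 genes described here encode the enzymes that make serine from glucose, the enzymes that pass its carbon into the folate cycle, asparagine synthetase and the transcription factor ATF4. They were chosen by symbol (*PHGDH*, *PSAT1*, *PSPH*, *SHMT1*, *SHMT2*, *MTHFD1*, *MTHFD2*, *MTHFD1L*, *ASNS* and *ATF4*), and all 10 were found among the 29159 gene rows of the count tables. RNA-seq was carried out on 3 established neuroblastoma lines of the adrenergic (ADRN) type: SK-N-BE(2)C, which is *MYCN* amplified with loss of chromosome arm 1p, IMR-32, which is *MYCN* and *MEIS1* amplified with 1p loss, and SH-SY5Y, which is *ALK* mutant and not *MYCN* amplified. Each line was left as a control, given palbociclib (PB), an inhibitor of the cell-cycle kinases CDK4 and CDK6, at 1 μM for 24 h, or given PB for longer, with 5 biological replicates (separate passages plated in independent experiments) in each of the 9 groups and 45 libraries in all. Longer PB meant 7 d in SK-N-BE(2)C and 5 d in IMR-32 and SH-SY5Y, so the length of treatment and the line cannot be told apart. Controls were collected alongside the 24 h samples, so longer PB and extra time in culture cannot be told apart either.

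PHGDH takes the glycolytic intermediate 3-phosphoglycerate into the serine pathway, PSAT1 transfers an amino group to the product, and PSPH removes the phosphate to give serine. Serine hydroxymethyltransferase, cytosolic as SHMT1 and mitochondrial as SHMT2, moves a carbon from serine to tetrahydrofolate and leaves glycine. In mitochondria that carbon is then oxidized by MTHFD2 and released as formate by MTHFD1L, and in the cytosol MTHFD1 converts folate carbon between its forms. The cycle feeds the synthesis of purines, thymidylate and methionine, which dividing cells need. ATF4 is translated when the initiation factor eIF2 is phosphorylated under stress or amino acid shortage, and *ASNS*, *PHGDH*, *PSAT1*, *SHMT2* and *MTHFD2* are known among its targets. MYCN, the oncoprotein of high-risk neuroblastoma, is known to drive serine and glycine synthesis genes together with ATF4.

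The promoter windows of these genes were read for the letters that ATF4, MYC proteins and E2F bind. RefSeq start sites (GRCh38.p14) were at hand for 8 of the 10 genes, in 13 windows running from 250 bases before to 50 bases after each start. The C/EBP-ATF response element core TGATGNAA, searched on both strands, lay in the windows of *MTHFD1L* and *ASNS* and in 3.62% of 35116 windows of all genes. The E-box CACGTG, the letters to which MYC proteins bind, lay in windows of *MTHFD1L*, *MTHFD1* and *ATF4* and in 7.26% of all windows. Neither E2F form searched, TTTCCCGC (1.63% of all windows) nor TTTGGCGC (0.652%), was found in a window of the 8 genes. The 250 bases before the start are shown for the 4 genes that held a match, with the matches in capitals: *MTHFD1L* at chr6:150866236-150866485 and *ASNS* at chr7:97872409-97872658 (minus strand), where the element core stood 129 and 68 bases before the transcription start that follows the run shown, *MTHFD1* at chr14:64388103-64388352, where the E-box stood 15 bases before the start, and *ATF4* at chr22:39520309-39520558, where it stood 82 bases before. In *MTHFD1L* the E-box preceded the element core, and from its other 2 listed starts that hold the match the core stood 90 bases before and 25 bases after. A match describes the letters of the window only.
MTHFD1L: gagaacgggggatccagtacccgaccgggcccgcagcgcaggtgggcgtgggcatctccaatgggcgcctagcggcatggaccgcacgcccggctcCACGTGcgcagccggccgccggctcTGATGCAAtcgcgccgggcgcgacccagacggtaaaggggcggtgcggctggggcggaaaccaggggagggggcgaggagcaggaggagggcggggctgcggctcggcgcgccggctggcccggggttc
ASNS: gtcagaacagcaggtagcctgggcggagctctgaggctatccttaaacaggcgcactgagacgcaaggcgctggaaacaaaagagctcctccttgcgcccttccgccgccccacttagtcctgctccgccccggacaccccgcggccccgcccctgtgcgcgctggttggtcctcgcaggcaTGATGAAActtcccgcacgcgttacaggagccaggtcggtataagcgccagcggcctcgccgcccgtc
MTHFD1: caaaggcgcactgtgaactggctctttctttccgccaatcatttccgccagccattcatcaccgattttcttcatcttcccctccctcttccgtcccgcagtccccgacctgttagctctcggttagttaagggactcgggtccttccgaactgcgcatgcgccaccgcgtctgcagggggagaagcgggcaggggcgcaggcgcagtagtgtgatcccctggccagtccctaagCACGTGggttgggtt
ATF4: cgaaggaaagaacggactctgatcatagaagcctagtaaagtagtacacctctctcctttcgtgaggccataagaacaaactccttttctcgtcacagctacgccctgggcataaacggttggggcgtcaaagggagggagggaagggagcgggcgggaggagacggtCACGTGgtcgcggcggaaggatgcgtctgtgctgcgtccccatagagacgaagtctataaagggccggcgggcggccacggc

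Libraries held between 13459219 and 25441812 counted reads, and levels are given as counts per 1000000 counts of the library (CPM). Summed adrenergic markers ran from 2024 to 8150 CPM over all libraries and were above control at 24 h in every line (3184 to 3466 against 2317 to 2562 CPM in SK-N-BE(2)C, 3176 to 3982 against 2024 to 3076 in IMR-32 and 6260 to 8150 against 4333 to 5692 in SH-SY5Y). After longer PB they were at 2790 to 3493 CPM in SK-N-BE(2)C, still above control, and overlapped it in IMR-32 (2891 to 3527) and SH-SY5Y (4895 to 6604). Of these markers *TFAP2B* was at 0 in IMR-32 controls and *TH* at a mean of 0.349 CPM in SH-SY5Y controls. Summed mesenchymal markers ran lower after longer PB, with an overlap in SK-N-BE(2)C alone, at 500.3 to 870 CPM against 794 to 1057 in SK-N-BE(2)C controls, 275 to 456 against 592 to 1111 in IMR-32 and 1089 to 1240 against 1605 to 2039 in SH-SY5Y. Their 24 h sums overlapped control in every line (713 to 1004, 492 to 936 and 1329 to 1824). Of the adrenergic markers tested, 1 of 9, 4 of 8 and 2 of 9 were called higher at 24 h, beside 10.9%, 7.87% and 10.5% of all genes. After longer PB 1, 1 and 2 of them were called higher and 1, 1 and 1 lower. Of the mesenchymal markers tested, 7 of 10, 4 of 7 and 7 of 10 were called lower after longer PB and 1, 0 and 1 higher. Beside these, 22.3%, 15.5% and 17.3% of all genes were lower and 24.5%, 16.6% and 18.6% higher after longer PB. The part of either marker list in the results below was not tested. In IMR-32, replicate 5 stood apart in all 3 conditions: the chi-square per degree of freedom of its counts against the other replicates was 56.8 to 85.9 in controls, 55.3 to 86.9 at 24 h and 22.3 to 48.6 at 5 d, whereas the other pairs lay at 4.16 to 12.4 in controls and 4.61 to 17.7 at 5 d. At 24 h, IMR-32 replicate 2 was also far from replicates 1, 3 and 4 (40.4 to 44.7, against 3.93 to 9.51 among those 3). In SK-N-BE(2)C at 7 d, replicate 1 lay at 22.3 to 77.8 from the other replicates. Replicates 1 and 5 of SH-SY5Y at 5 d were at 42.1. The SK-N-BE(2)C libraries numbered 3, 4 and 5 lay far closer to one another (2.43 to 3.18 in controls, 1.69 to 2.42 at 24 h) than the other pairs (11.2 to 19.2 and 7.05 to 23.6), though at 7 d their own pairs lay at 5.60 to 29.5. If they are not independent, the SK-N-BE(2)C p-values are too small, and values with the 3 summed to 1 library are given where a call within this line changes. The comparisons between lines were not run with them summed. The *ASNS* row held only 14 to 49 reads per control library. In the GENCODE annotation on GRCh37, 2374 of the 2385 bases (99.54%) of the canonical *ASNS* transcript are also exons of a second gene on the same strand, ENSG00000284707, and read counting of this kind discards reads that fall in more than 1 gene. No source used here names the annotation behind the deposited counts, and the part of this overlap in the low *ASNS* counts was not tested. No other gene of the 10 shares exon bases with a gene on its own strand.

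In control cells *ATF4* and *PHGDH* had the highest levels per length of canonical transcript and *ASNS* the lowest. Expressed as CPM per kilobase of transcript (RPKM, mean ± SD, n = 5), *ATF4* was at 252 ± 3.79 in SK-N-BE(2)C, compared with 166 ± 35.5 for IMR-32 and 114 ± 9.40 for SH-SY5Y. *PHGDH* was at 213 ± 14.3, 109 ± 23.5 and 98.1 ± 8.05 RPKM in the same order, against 97.6 ± 8.78, 50.7 ± 4.26 and 47.9 ± 4.28 for *PSAT1* and 20.2 ± 1.01, 10.6 ± 0.653 and 29.8 ± 0.907 for *PSPH*. The levels of the 3 serine synthesis genes thus fell in the order of their reactions in every line. Of the serine hydroxymethyltransferases, mitochondrial *SHMT2* (114 ± 5.82, 99.8 ± 12.6 and 48.0 ± 4.65 RPKM) was above cytosolic *SHMT1* (9.70 ± 0.169, 11.4 ± 1.64 and 12.2 ± 0.627) in all 3 lines. The remaining folate genes lay between 16.0 RPKM (*MTHFD1L* in SH-SY5Y) and 142 RPKM (*MTHFD1* in SK-N-BE(2)C). *ASNS* stood between 0.465 and 0.803 RPKM, with the limit given above for its row.

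**Figure D1:**
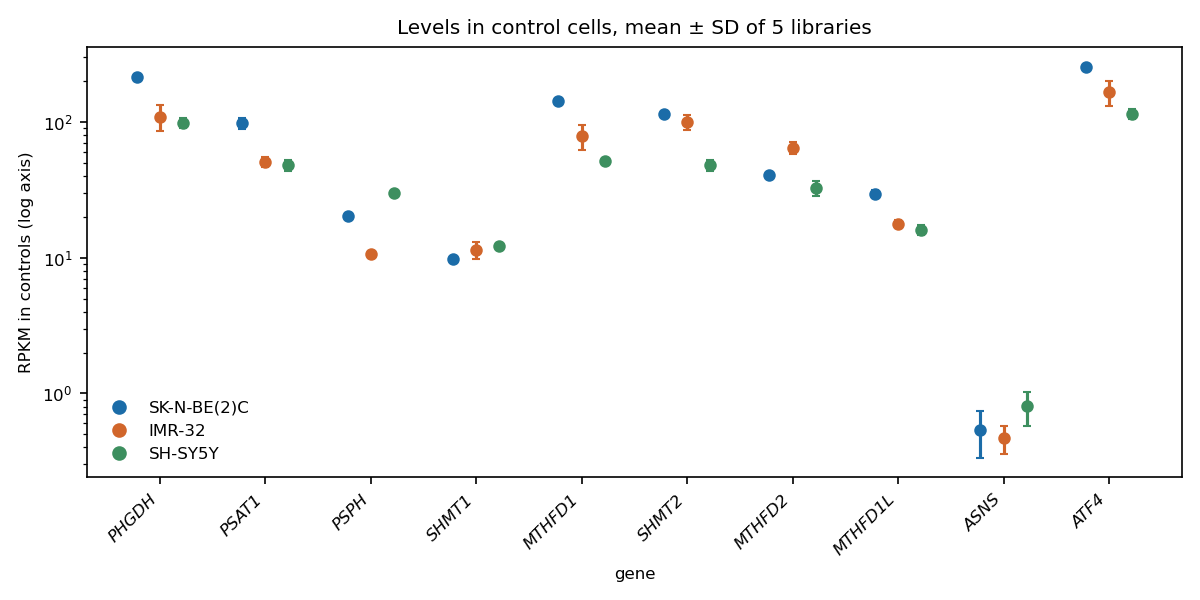
RPKM of each gene in control cells on a log axis, as the mean of 5 libraries with SD bars, one color per line. *ATF4* and *PHGDH* lie at the top in SK-N-BE(2)C (252 and 213 RPKM), *ASNS* lies below 1 RPKM in all lines, and SH-SY5Y is the highest line only for *PSPH*, *SHMT1* and *ASNS*.

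Control levels were then compared between lines, with scaling fitted over all 45 libraries. Against SK-N-BE(2)C, IMR-32 differed in 7 of the 10 genes past the limits (adjusted p below 0.05 and a log2 difference above 0.5 in size), beside 62.1% of 16282 genes, and SH-SY5Y in 7, beside 57.5%. SH-SY5Y and IMR-32 differed in 5, beside 54.2%. These counts are near or a little above the shares of all genes. *SHMT2* separated SH-SY5Y from both amplified lines: its 5 control libraries held 92.7, 93.1, 107, 113 and 113 CPM there, 204, 189, 223, 202 and 259 in IMR-32 and 265, 253, 237, 239 and 237 in SK-N-BE(2)C. No SH-SY5Y library reached the lowest library of either amplified line, and the log2 difference was −1.45 ± 0.11, adjusted p 2.2e-15 against SK-N-BE(2)C and −1.24 ± 0.11, adjusted p 2.2e-13 against IMR-32. *ATF4* was ordered the same way, at a mean of 358, 236 and 162 CPM in the 3 lines, taken in the order SK-N-BE(2)C, followed by IMR-32 and lastly SH-SY5Y, with the latter at −1.34 (adjusted p 4.5e-16) and −0.72 (adjusted p 9e-09) as log2 differences from these lines. *MTHFD1* and *MTHFD2* were likewise lower in SH-SY5Y than in either amplified line (*MTHFD1* −1.67 and −0.80, *MTHFD2* −0.52 and −1.16), although the *MTHFD2* difference from SK-N-BE(2)C missed the size limit under 7 of 11 alternatives, at −0.32 by library size alone, −0.48 by RLE factors or DESeq2, −0.47 with no filter and −0.48 to −0.50 without replicate 1, 2 or 3.

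The other genes did not separate SH-SY5Y from both amplified lines past the limits, except *PSPH* by library size alone. *PHGDH* and *PSAT1* differed little between IMR-32 and SH-SY5Y (log2 difference of SH-SY5Y from IMR-32 −0.34 ± 0.14, adjusted p 0.028 for *PHGDH* and −0.27 ± 0.09, adjusted p 0.01 for *PSAT1*, both inside the size limit) and were highest in SK-N-BE(2)C. *PSPH* went the other way, with 57.4, 56.6, 60.1, 59.5 and 60.9 CPM in the SH-SY5Y controls against 19.5, 21.1, 20.2, 22.9 and 20.9 in IMR-32, groups that did not overlap (log2 difference 1.31 ± 0.09, adjusted p 4.9e-16). Against SK-N-BE(2)C the SH-SY5Y level of *PSPH* was higher by 0.36 ± 0.09, adjusted p 0.00058, inside the size limit, and by 0.56 by library size alone. *ASNS* differed between SH-SY5Y and IMR-32 by 0.61 ± 0.28, adjusted p 0.051, and it passed under 4 of 11 alternatives: by library size alone (0.79, adjusted p 0.012), with the replicate number as a block (0.61, 0.048) and without replicate 1 (0.69, 0.043) or 3 (0.76, 0.039). *SHMT1* lay within a log2 difference of 0.5 in all 3 pairs of lines. For reference, *MYCN* itself was at a mean of 3752 CPM in SK-N-BE(2)C controls, compared with 1637 for IMR-32 and 6.35 for SH-SY5Y, while *MYC* was at 83.7 CPM in SH-SY5Y and below 1 CPM in the others. With 3 lines, amplification and the line itself cannot be told apart.

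With all libraries in the fit, at least 5 of these genes were called lower after 24 h of PB in every line, and at least 7 after longer PB. A gene was called where the adjusted p was below 0.05 and the log2 fold change above 0.5 in size. At 24 h, in the same order of lines, 5, 7 and 7 of the 10 were called lower, and all 10 had log2 fold changes below 0 in each line, beside 10.6%, 10.5% and 11.0% of all genes tested called lower and 10.9%, 7.87% and 10.5% called higher. After longer PB, 7, 7 and 8 were called lower, beside 22.3%, 15.5% and 17.3% of all genes, and *ASNS* alone was called higher, in both amplified lines, beside 24.5%, 16.6% and 18.6% of all genes called higher. The IMR-32 call of *ASNS* was lost under 12 of 27 alternatives. The median log2 fold change of the 10 genes was −0.54, −0.62 and −0.66 at 24 h and −0.65, −0.76 and −0.88 after longer PB, whereas the median of all genes stayed between 0.0028 and 0.06. In these bulk samples, fewer cells with a transcript and less transcript per cell cannot be told apart. The groups did not overlap in 7, 8 and 9 of the 10 genes at 24 h, beside 39.3%, 23.1% and 38.5% of all genes, and in 9, 7 and 9 after longer PB, beside 53.8%, 39.1% and 47.0%. *PHGDH*, *SHMT1*, *MTHFD1*, *SHMT2* and *MTHFD1L* were called lower at both times in all 3 lines, *MTHFD1L* in SK-N-BE(2)C and *SHMT2* in IMR-32 close to the limits at 24 h. *PSPH* and *ATF4* were not called against control in any line, although *ATF4* in SH-SY5Y at 24 h was called without 24 h replicate 4 (−0.53). Between the treated times, *ASNS* and *ATF4* were called higher and *PSAT1*, *SHMT1*, *MTHFD1* and *MTHFD1L* lower at 7 d in SK-N-BE(2)C (beside 17.5% of all genes higher and 14.4% lower), *PHGDH* and *ASNS* higher at 5 d in IMR-32 (10.8% higher and 8.86% lower) and *MTHFD1L* lower at 5 d in SH-SY5Y (6.23% lower). Those groups did not overlap in 7, 3 and 1 of the 10, beside 40.4%, 23.5% and 24.7%. Without replicate 5 of each group, the counts called in IMR-32 were 6 at 24 h and 8 after 5 d, and without 24 h replicate 2 they were 7 and 8, with 1 between the treated times. In SK-N-BE(2)C at 24 h, 4 to 6 were called when 1 library or replicate number was left out. Shares of all genes are not given for these left-out fits.

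**Figure D2:**
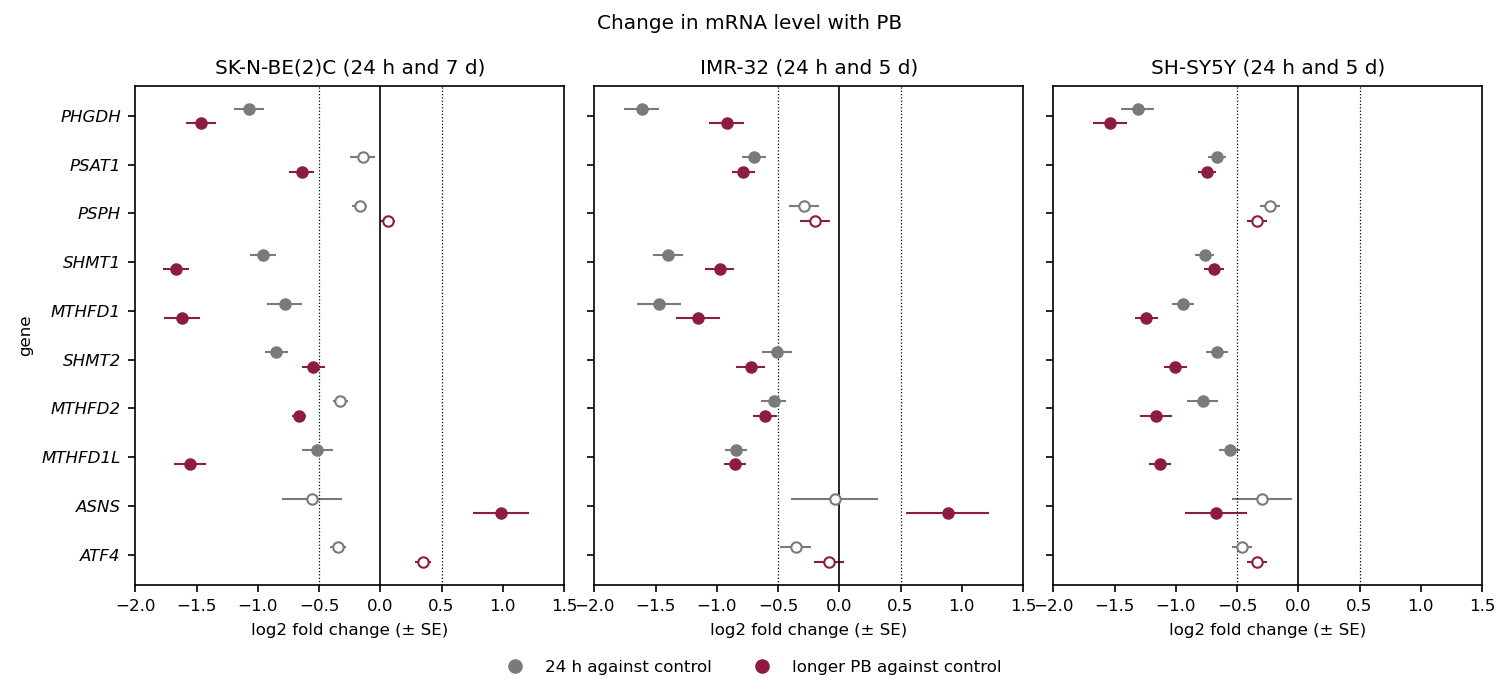
Log2 fold change against control with SE bars for each gene (rows) in each line (panels), gray at 24 h and dark red after longer PB, filled where the gene passed both limits and with dotted lines at 0.5 in either direction. *PHGDH* at 24 h sits at −1.08, −1.61 and −1.31, *PSPH* stays between the dotted lines throughout, and *ASNS* after longer PB lies at 0.98 and 0.88 in the amplified lines and −0.67 in SH-SY5Y.

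*PHGDH*, which commits carbon to serine, had the largest fall of the 10 genes at 24 h in every line. In SK-N-BE(2)C the 5 control libraries held 444, 384, 379.9, 396 and 382 CPM, the 24 h libraries 226, 208, 172, 172 and 185, and the 7 d libraries 203, 130.3, 138, 139.9 and 131. Every treated library lay below every control, and replicate 1 was the highest at 7 d. The fitted level was 2.11-fold lower at 24 h (log2 fold change −1.08 ± 0.12, adjusted p 3.2e-06) and 2.75-fold lower at 7 d (−1.46 ± 0.12, adjusted p 3.5e-08), and the 2 times differed past the size limit without 7 d replicate 1 alone (−0.54, adjusted p 3.1e-05). IMR-32 fell and then came part of the way back: controls were at 179, 173, 216, 174 and 275 CPM, 24 h libraries at 60.4, 67.0, 64.8, 58.6 and 72.2, and 5 d libraries at 116, 86.9, 125, 96.2 and 118. All 5 d libraries lay above all 24 h libraries and below all controls. The 24 h fall was 3.06-fold (−1.61 ± 0.14, adjusted p 3.3e-07), the 5 d fall 1.89-fold (−0.92 ± 0.14, adjusted p 8.2e-05), and 5 d was higher than 24 h by 0.69 ± 0.14 (adjusted p 0.0016). SH-SY5Y stayed low, with controls at 182, 159, 199, 188 and 188, 24 h at 68.8, 61.3, 73.3, 84.1 and 83.7 and 5 d at 51.6, 51.1, 65.2, 78.6 and 83.7 CPM. Here the treated groups overlapped each other and not the control, at −1.31 ± 0.14, adjusted p 1e-06 for 24 h and −1.54 ± 0.14, adjusted p 1e-07 for 5 d.

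The next enzyme, *PSAT1*, had smaller changes. At 24 h in SK-N-BE(2)C its libraries held 215, 229.9, 182, 185 and 185 CPM against 229, 242, 199, 205 and 201 in controls, groups that overlapped (−0.14 ± 0.10, adjusted p 0.27), and by 7 d they held 169, 113, 137, 147 and 142, all below control (−0.64 ± 0.10, adjusted p 3.3e-05). The difference between those times, −0.50 ± 0.10, adjusted p 0.00056, passed the size limit narrowly and missed it under 11 of 28 alternatives, among them RLE factors (−0.485), library size alone (−0.492), DESeq2 (−0.485) and the replicate number as a block (−0.499), down to −0.37 without replicate 2. Both other lines had already dropped at 24 h, to a mean of 66.8 from 112 CPM in IMR-32 (−0.70 ± 0.09, adjusted p 3.9e-05) and to 67.3 from 106 in SH-SY5Y (−0.66 ± 0.07, adjusted p 7.6e-07), and they held that level at 5 d (−0.78 and −0.75 against control). *PSPH*, the last enzyme of the pathway, was not called anywhere. Its mean went from 39.8 CPM to 36.3 and 42.8 in SK-N-BE(2)C, from 20.9 to 16.6 and 18.4 in IMR-32, and from 58.9 to 50.5 and 48.9 in SH-SY5Y. The 6 log2 fold changes against control lay between −0.34 and 0.06, and the SH-SY5Y value at 5 d had an adjusted p of 0.0017 inside the size limit.

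**Figure D3:**
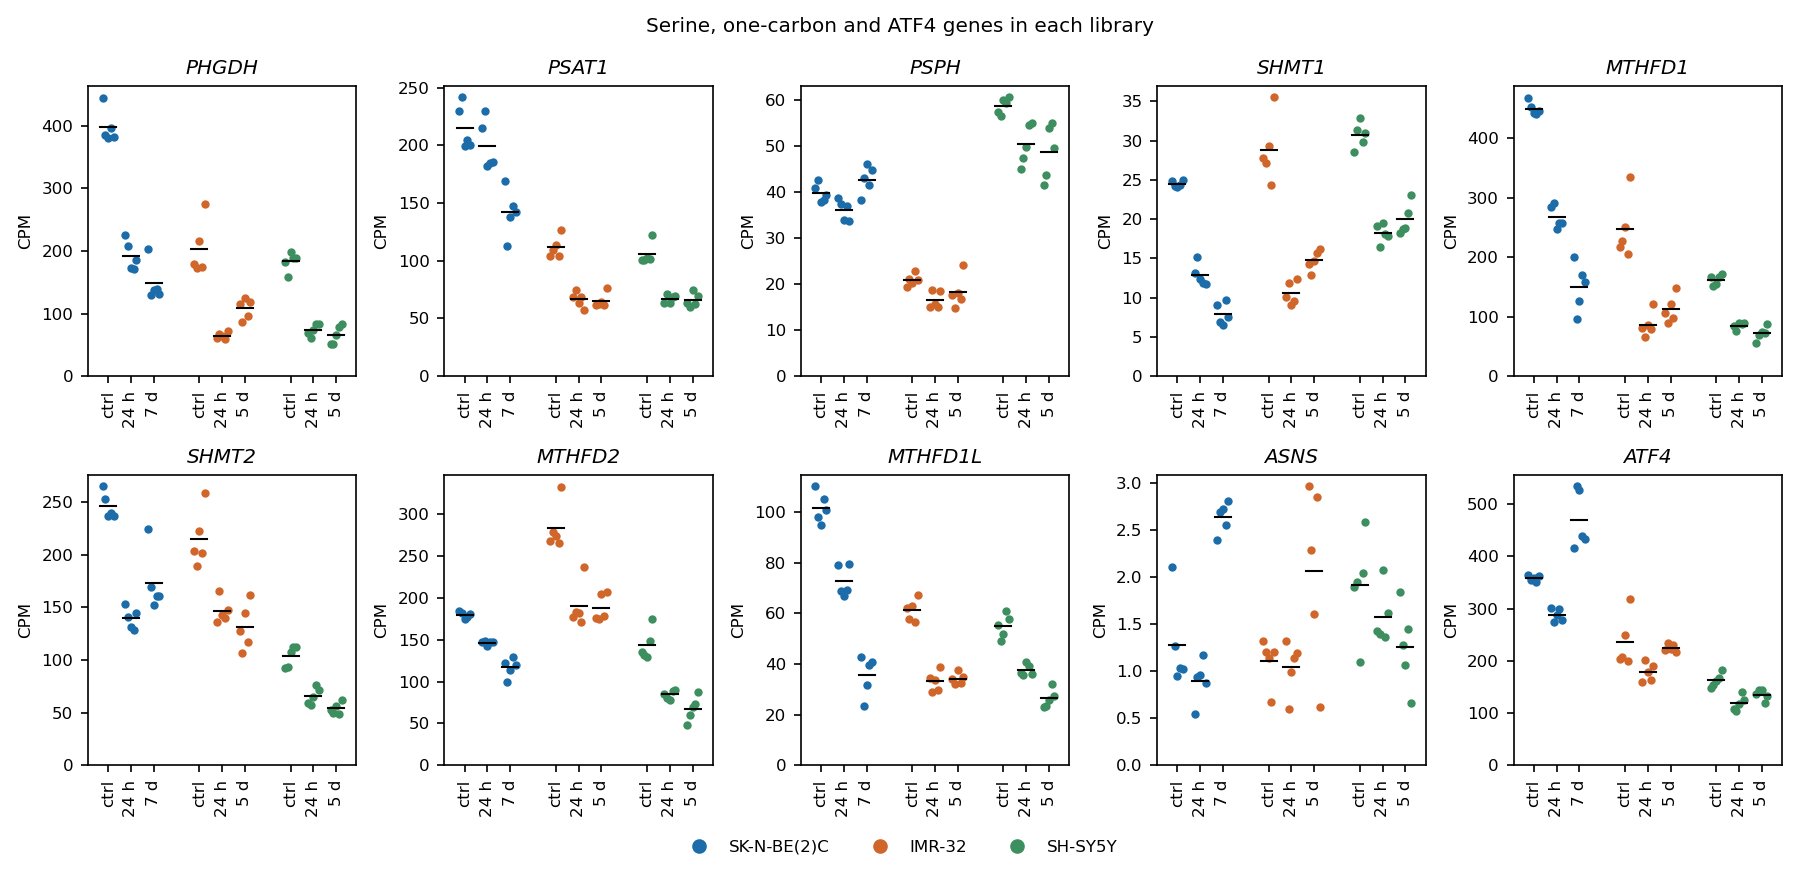
CPM of each gene in each of the 45 libraries, in panels by gene, with points for libraries, black bars for group means, one color per line, and control, 24 h and longer PB from left to right within a line. *PHGDH*, *SHMT1*, *MTHFD1* and *MTHFD1L* step down from control to 24 h in all 3 lines, the SK-N-BE(2)C libraries of *ATF4* at 7 d (415 to 534 CPM) stand above its controls (351 to 364), and no *ASNS* library exceeds 2.97 CPM.

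Of the cytosolic folate enzymes, *SHMT1* had the largest fall of the 10 at 7 d in SK-N-BE(2)C with all libraries in the fit, close to that of *MTHFD1* (−1.62). With 1 library or replicate number left out, *SHMT1* ran from −1.75 to −1.61 and *MTHFD1* from −1.77 to −1.5, so their order was not fixed. For *SHMT1*, control libraries of that line were at 24.9, 24.2, 24.1, 24.3 and 25.0 CPM, 24 h libraries at 13.2, 15.2, 12.4, 11.9 and 11.7 and 7 d libraries at 9.03, 6.96, 6.56, 9.64 and 7.60. The 3 groups were separate from one another, at −0.96 ± 0.10, adjusted p 1.7e-06 for 24 h, −1.67 ± 0.11, adjusted p 1.5e-09 for 7 d and −0.71 ± 0.11, adjusted p 3.7e-05 between the treated times. In IMR-32 the 24 h libraries (10.1, 11.9, 9.02, 9.61 and 12.3 CPM) were the lowest and the 5 d libraries (14.3, 12.9, 14.7, 15.7 and 16.2) lay between them and the controls (27.8, 27.2, 29.3, 24.4 and 35.5). The fall was −1.40 ± 0.12, adjusted p 3.1e-07 at 24 h and −0.98 ± 0.12, adjusted p 1.4e-05 at 5 d, and the difference between the treated times, 0.42 ± 0.12, adjusted p 0.016, was inside the size limit, and past it without replicate 2 (0.53, adjusted p 0.014). SH-SY5Y was at −0.76 ± 0.08, adjusted p 3e-07 and −0.69 ± 0.08, adjusted p 5.1e-07.

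*MTHFD1*, a cytosolic enzyme with 3 activities on folate carbon, fell in steps in SK-N-BE(2)C. There it held 467, 452, 442, 441 and 445 CPM in controls, 284, 292, 248, 257 and 257 at 24 h and 200.4, 95.7, 126, 170.2 and 158 at 7 d. Each step was a separate group, and replicate 2 was lowest and replicate 1 highest at 7 d. The fall was 1.72-fold at 24 h (−0.78 ± 0.14, adjusted p 0.00038) and 3.08-fold at 7 d (−1.62 ± 0.15, adjusted p 9.4e-08). IMR-32 controls spread from 206 to 336 CPM and its treated libraries from 66.2 to 149, with −1.47 ± 0.18, adjusted p 1.5e-05 at 24 h and −1.15 ± 0.18, adjusted p 0.0001 at 5 d. In SH-SY5Y the mean went from 162 to 85.0 and 71.9 CPM (−0.94 ± 0.09, adjusted p 1.8e-07 and −1.24 ± 0.09, adjusted p 4.6e-09). Treated libraries stayed below controls in all 3 lines. The E-box 15 bases before the *MTHFD1* start is shown above.

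The mitochondrial genes fell as well. *SHMT2* in SK-N-BE(2)C dropped to 153, 141, 132, 129 and 144 CPM at 24 h from 265, 253, 237, 239 and 237 and stood at 224, 169, 153, 161 and 161 at 7 d. All treated libraries were below control, and replicate 1 at 7 d was the nearest to it. The fall was −0.85 ± 0.09, adjusted p 2.2e-06 at 24 h and −0.55 ± 0.09, adjusted p 6.7e-05 at 7 d. In SH-SY5Y it went from a mean of 104 to 65.9 and 54.3 CPM (−0.66 ± 0.09, adjusted p 1.2e-05 and −1.003 ± 0.09, adjusted p 5.3e-08). IMR-32 went from 215 to 146 and 131 CPM (−0.51 ± 0.12, adjusted p 0.0043 and −0.72 ± 0.12, adjusted p 0.00018). The IMR-32 call at 24 h sat at the size limit: it was lost with the replicate number as a block (−0.50, adjusted p 0.0015) and without control replicate 3, control replicate 5 or 24 h replicate 1, 3 or 4, at −0.43 to −0.50.

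*MTHFD2*, the mitochondrial dehydrogenase that is high in embryonic and cancer tissue, had its largest fall in SH-SY5Y, with control libraries at 136, 132, 129, 148 and 175 CPM, 24 h at 84.9, 80.7, 78.3, 88.7 and 90.2 and 5 d at 48.5, 59.6, 69.5, 72.7 and 87.1. Treated and control libraries were apart, at −0.78 ± 0.13, adjusted p 9.5e-05 and −1.16 ± 0.13, adjusted p 8.2e-07. In SK-N-BE(2)C the 24 h libraries were tightly grouped (148, 149, 142, 148 and 147 CPM) below controls of 175 to 184 CPM, a shift of −0.33 ± 0.06, adjusted p 0.00029, which was inside the size limit, and 7 d passed it (−0.66 ± 0.06, adjusted p 5.6e-08). IMR-32 was at −0.54 ± 0.10, adjusted p 0.00073 and −0.61 ± 0.10, adjusted p 0.00016. Without control replicate 5, whose 332 CPM was the highest of that group, the IMR-32 value at 24 h was −0.47. *MTHFD1L*, which releases formate from mitochondria, fell in steps in SK-N-BE(2)C: 110.3, 98.1, 94.8, 105 and 101 CPM in controls, 79.1, 69.0, 66.8, 69.4 and 79.5 at 24 h and 42.9, 23.4, 31.7, 39.7 and 40.8 at 7 d. The groups did not overlap, and 7 d was 2.05-fold below 24 h (−1.04 ± 0.13, adjusted p 5.9e-06). Against control it was −0.52 ± 0.13, adjusted p 0.0033 at 24 h, close to the size limit, and −1.55 ± 0.13, adjusted p 3.1e-08 at 7 d. The 24 h call was lost under 6 alternatives: by library size alone, without control replicate 1 or 24 h replicate 3 (−0.48 each), without 24 h replicate 4 (−0.50) or replicate 4 of every group (−0.49), and with replicates 3, 4 and 5 summed (−0.51, adjusted p 0.067). IMR-32 reached its 24 h level of 33.2 CPM from 61.3 and stayed at 34.2 (−0.84 and −0.85), while SH-SY5Y went on from −0.56 to −1.13, its only gene of the 10 called between 24 h and 5 d (−0.57 ± 0.09, adjusted p 0.00011). That call was lost without 5 d replicate 1, at −0.50.

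*ATF4* mRNA was inside the size limit against control in every line with all libraries in the fit, and in SK-N-BE(2)C it lay below control at 24 h and above it at 7 d. Its controls there held 364, 354, 358, 351 and 362 CPM, the 24 h libraries 301, 274, 287, 299.6 and 279 and the 7 d libraries 415, 534, 527, 438 and 433. The 24 h libraries were all below control and the 7 d libraries all above it. Against control the log2 fold changes were −0.35 ± 0.06, adjusted p 0.00032 and 0.35 ± 0.06, adjusted p 0.00012, both inside the size limit, and 7 d was higher than 24 h by 0.69 ± 0.06 (adjusted p 2.2e-07). In IMR-32 controls it ranged from 199 to 319 CPM and overlapped both treated groups (−0.36 ± 0.12, adjusted p 0.035 and −0.08 ± 0.12, adjusted p 0.6). In SH-SY5Y the treated libraries, 108, 104, 117, 140.1 and 126 CPM at 24 h and 137, 144, 143, 119 and 132 at 5 d, were all below controls of 147, 154, 162, 168 and 182. Those shifts were −0.46 ± 0.08, adjusted p 0.00016 and −0.34 ± 0.08, adjusted p 0.0015, again inside the size limit, but without 24 h replicate 4, the highest of its group, the 24 h value was −0.53 (adjusted p 3e-05) and passed both limits. ATF4 is controlled largely at translation, and protein was not measured here.

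The *ASNS* row, with the overlap described above, held no more than 2.97 CPM in any library. SK-N-BE(2)C libraries were at 2.11, 1.27, 0.948, 1.04 and 1.03 CPM in controls, 0.549, 0.943, 0.965, 1.17 and 0.873 at 24 h and 2.40, 2.70, 2.73, 2.55 and 2.81 at 7 d. All 7 d libraries were above all others of the line, at 0.98 ± 0.23, adjusted p 0.00095 against control and 1.54 ± 0.23, adjusted p 3.5e-05 against 24 h. In IMR-32 the 5 d libraries spread over 2.97, 2.29, 1.60, 2.85 and 0.616 CPM and overlapped controls at 1.33, 1.20, 1.14, 0.669 and 1.21. The fitted 0.88 ± 0.34, adjusted p 0.04 against control did not survive 12 of the 27 alternatives run, among them leaving out 5 d replicate 1, 2 or 4 (adjusted p 0.11, 0.075 and 0.1), with a highest adjusted p of 0.23 over all of them, and 0.92 ± 0.34, adjusted p 0.048 against 24 h did not survive 18. SH-SY5Y was lower at 5 d (−0.67 ± 0.25, adjusted p 0.026), with groups that overlapped, and that call was lost under 6 of 27 alternatives: without control replicate 5, 5 d replicate 3 or 5 d replicate 5, and without replicate 2, 4 or 5 of every group, over values from −0.84 to −0.39 (adjusted p 0.19 without replicate 5). At 24 h *ASNS* in SK-N-BE(2)C passed without control replicate 3 alone (−0.65, adjusted p 0.048). The element core in the *ASNS* window is shown above.

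Whether the lines responded differently was tested as a difference of responses in 1 fit of all 45 libraries, at an adjusted p below 0.05. Differences are given as IMR-32 or SH-SY5Y minus SK-N-BE(2)C, or as SH-SY5Y minus IMR-32. At 24 h few genes differed. *PSAT1* fell more in IMR-32 and SH-SY5Y than in SK-N-BE(2)C (log2 difference −0.56 ± 0.13, adjusted p 0.0058, and −0.49 ± 0.13, adjusted p 0.028), *MTHFD1* fell less in SK-N-BE(2)C than in IMR-32 (IMR-32 minus SK-N-BE(2)C −0.70 ± 0.21, adjusted p 0.036), and *SHMT1* fell less in SH-SY5Y than in IMR-32 (0.67 ± 0.14, adjusted p 0.0034). These were 2, 1 and 1 of 10 genes for IMR-32 against SK-N-BE(2)C, SH-SY5Y against SK-N-BE(2)C and SH-SY5Y against IMR-32, beside 6.89%, 3.13% and 4.35% of 16282 genes. With the replicate number of each line as a block they were 6, 2 and 2: *PHGDH* (−0.51, adjusted p 0.006), *SHMT1* (−0.44, 0.029), *SHMT2* (0.35, 0.041) and *MTHFD1L* (−0.33, 0.04) joined for IMR-32 against SK-N-BE(2)C, *MTHFD2* (−0.41, 0.0089) for SH-SY5Y against SK-N-BE(2)C and *MTHFD1* (0.57, 0.01) for SH-SY5Y against IMR-32. The shares of all genes given here come from the fit without the block, so the blocked counts cannot be set against them. Some of these added differences also passed under other settings, among them *PHGDH* by library size alone and by DESeq2 and *MTHFD2* by DESeq2. Without replicate 3 the 4 differences were at adjusted p 0.052 and 0.14 (*PSAT1* and *MTHFD1*, IMR-32 against SK-N-BE(2)C), 0.14 (*PSAT1*, SH-SY5Y) and 0.06 (*SHMT1*). *MTHFD1* was lost without replicate 1, 2, 3 or 4 and the SH-SY5Y difference in *PSAT1* without 1, 3, 4 or 5.

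With longer PB the responses of 4, 7 and 3 of the 10 genes differed, beside 34.5%, 31.6% and 30.6% of all genes. The first and last of these counts are near the shares of all genes, and the time of treatment differed between SK-N-BE(2)C and the others. The *ATF4* response in SK-N-BE(2)C differed from that of IMR-32 (−0.46 ± 0.13, adjusted p 0.0071) and that of SH-SY5Y (−0.66 ± 0.13, adjusted p 0.00022). *SHMT1* and *MTHFD1L* fell more in SK-N-BE(2)C than in IMR-32 (0.66 ± 0.15, adjusted p 0.00044, and 0.67 ± 0.15, adjusted p 0.00053) or SH-SY5Y (1.01 ± 0.14, adjusted p 1e-06, and 0.45 ± 0.15, adjusted p 0.019). *MTHFD2* fell more in SH-SY5Y than in SK-N-BE(2)C (−0.47 ± 0.14, adjusted p 0.011) or IMR-32 (−0.50 ± 0.14, adjusted p 0.0068), and *SHMT2* more in SH-SY5Y than in SK-N-BE(2)C (−0.43 ± 0.15, adjusted p 0.03). *PHGDH* fell less in IMR-32 than in SK-N-BE(2)C (0.51 ± 0.20, adjusted p 0.039) or SH-SY5Y (SH-SY5Y minus IMR-32 −0.56 ± 0.20, adjusted p 0.027). The *ASNS* response of SH-SY5Y differed from those of IMR-32 (−1.49 ± 0.40, adjusted p 0.0037) and SK-N-BE(2)C (−1.62 ± 0.39, adjusted p 0.0015), and the *PSPH* response of SH-SY5Y from that of SK-N-BE(2)C (−0.37 ± 0.13, adjusted p 0.029). The block added *PSPH* (−0.30, adjusted p 0.042) and *MTHFD1* (0.47, 0.0092) for IMR-32 against SK-N-BE(2)C, *MTHFD1* (0.43, 0.018) for SH-SY5Y against SK-N-BE(2)C and *SHMT1* (0.34, 0.044) for SH-SY5Y against IMR-32. Among these, *PSPH* also passed by DESeq2. Without replicate 1 *MTHFD1* also differed for SH-SY5Y against SK-N-BE(2)C (0.62, adjusted p 0.045), and without replicate 5 *PSPH* for IMR-32 against SK-N-BE(2)C (−0.39, 0.023). With no filter the *PHGDH* difference of IMR-32 and the *MTHFD1L* difference of SH-SY5Y from SK-N-BE(2)C missed the threshold (0.088 and 0.057), as did the former by RLE factors (0.055). Leaving out 1 replicate number ended *ATF4* for IMR-32 against SK-N-BE(2)C (without 3), *PHGDH* for SH-SY5Y against IMR-32 (without 1, 2, 3 or 4), *PHGDH* for IMR-32 against SK-N-BE(2)C (2, 3 or 4) and *ASNS* for SH-SY5Y against IMR-32 (4). For SH-SY5Y against SK-N-BE(2)C it ended *PSPH* (without 1 or 3), *SHMT2* (1, 3 or 4), *MTHFD2* (1 or 4) and *MTHFD1L* (2, 3 or 4).

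*MYCN* mRNA was not called lower at 24 h in the amplified lines. In SK-N-BE(2)C it was at 5100.0, 4427, 4506, 4673 and 5079 CPM against 4428, 3356, 3325, 3952 and 3697 in controls (0.31 ± 0.10, adjusted p 0.015), and in IMR-32 at 2366, 2395, 2441, 2144 and 2468 against 1755, 1596, 1762, 1776 and 1296, called higher (0.58 ± 0.09, adjusted p 0.00011, but inside the size limit at 0.496 without replicate 5). By 7 d it had dropped in SK-N-BE(2)C to 2340.0, 1861, 2520.0, 2633 and 2455 CPM, below every control (−0.71 ± 0.10, adjusted p 5.7e-06), while at 5 d in IMR-32 it was at 2218, 1941, 2110.0, 1919 and 2128 (0.32 ± 0.09, adjusted p 0.0056). MYCN protein was not measured here, and the part of *MYCN* in the changes given above was not tested. In SH-SY5Y, where *MYCN* held 4.98, 6.57, 6.05, 8.16 and 5.97 CPM in controls, it was not called at 24 h or 5 d against control (−0.58 ± 0.26, adjusted p 0.069, and 0.27), although the 24 h value passed under 7 of 27 alternatives, among them the replicate number as a block (−0.60, adjusted p 0.042), DESeq2 (−0.61) and leaving out 24 h replicate 2 (−0.72). *MYC* in that line held 80.5, 86.2, 84.2, 87.8 and 79.6 CPM in controls, 72.8, 92.6, 81.1, 105 and 105 at 24 h and 28.2, 43.4, 73.1, 86.4 and 84.4 at 5 d. The 24 h and control libraries overlapped, and neither time was called (0.12 ± 0.24, adjusted p 0.71 and −0.47 ± 0.25, adjusted p 0.11). *MYC* in SK-N-BE(2)C was below 1 CPM in controls and at 1.07, 4.48, 2.90, 1.81 and 1.65 CPM at 7 d.

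The neighboring pathway genes moved both ways. Of 17, 16 and 16 other folate cycle genes tested, 8, 6 and 4 were called lower and 2, 2 and 2 higher after longer PB, in the order of lines used above, with median log2 fold changes of −0.49, −0.21 and −0.20, beside 22.3%, 15.5% and 17.3% of all genes lower and 24.5%, 16.6% and 18.6% higher. The higher counts are below those shares. *TYMS*, which makes thymidylate and uses folate carbon for DNA, fell most: its mean of 159 CPM in SK-N-BE(2)C controls was 12.7 at 24 h and 22.3 at 7 d (−2.89 ± 0.39, adjusted p 9.6e-06), and in IMR-32 it went from 315 to 30.2 and 108 (−1.55 ± 0.13, adjusted p 5.1e-07). SH-SY5Y had 315, 33.7 and 49.4 CPM (−2.73 ± 0.36, adjusted p 1.2e-05), with 5 d libraries spread over 13.8, 26.6, 60.0, 60.8 and 85.9. In IMR-32 *TYMS* stood higher at 5 d than at 24 h, by 1.79 (adjusted p 1.6e-07), beside the *PHGDH* rise given above. *FTCD*, of histidine breakdown, was called higher (1.58, 2.31 and 1.84) from control means between 0.427 and 1.03 CPM.

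Among 13, 12 and 13 other serine and glycine genes, 6, 2 and 3 were called higher and 4, 2 and 3 lower after longer PB, beside 24.5%, 16.6% and 18.6% of all genes higher and 22.3%, 15.5% and 17.3% lower. In IMR-32 and SH-SY5Y the counts are near those shares. *SFXN3*, a mitochondrial serine transporter, was called higher in all lines (1.09 ± 0.06, adjusted p 4.6e-10, then 1.21 ± 0.30, adjusted p 0.0036, and 0.69 ± 0.08, adjusted p 3.4e-07). *AMT*, part of the glycine cleavage system, was higher too (1.45, 1.53 and 0.54), at control means of 0.305, 1.45 and 29.0 CPM, though all bases of its canonical transcript are shared with another gene on its strand. Its call was lost in SK-N-BE(2)C without replicate 2 or 4 (adjusted p 0.065 and 0.069) and with replicates 3, 4 and 5 summed (0.051), and in SH-SY5Y without 5 d replicate 5 (0.46). Of 8 methionine cycle and transsulfuration genes tested per line, 3, 3 and 1 fell past the limits (beside 22.3%, 15.5% and 17.3% of all genes), and *AHCYL2* was the 1 gene that rose. This relative of adenosylhomocysteinase was called higher in SK-N-BE(2)C and SH-SY5Y (0.99 and 1.25, with −0.05 in IMR-32), and *CTH*, which makes cysteine from cystathionine, lower in both amplified lines (−1.25 and −0.60, with −0.33 in SH-SY5Y).

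Of 31, 30 and 32 other ATF4 targets, 6, 5 and 2 were called higher and 5, 2 and 5 lower after longer PB, with medians of 0.14, −0.07 and −0.21. All 6 counts are near or below the shares of all genes called (24.5%, 16.6% and 18.6% higher, 22.3%, 15.5% and 17.3% lower). *DDIT3*, the stress transcription factor CHOP, was the only one called the same way in all 3 lines (0.56 ± 0.10, adjusted p 8.2e-05, then 0.75 ± 0.20, adjusted p 0.0053, and 0.53 ± 0.12, adjusted p 0.0011), and it lost the call in SK-N-BE(2)C without control replicate 5 (0.48) or with replicates 3, 4 and 5 summed (0.45) and in SH-SY5Y without control replicate 2, control replicate 4 or 5 d replicate 1. At 24 h 3, 2 and 4 of the targets were called higher and 4, 6 and 1 lower, beside 10.9%, 7.87% and 10.5% of all genes higher and 10.6%, 10.5% and 11.0% lower. Of the 14 genes of the eIF2 kinases and eIF2 control, 3, 2 and 1 were called lower after longer PB, near or below the 22.3%, 15.5% and 17.3% of all genes, and the rest were not called. *EIF2B3*, a subunit of the eIF2 exchange factor, was lower in SK-N-BE(2)C and SH-SY5Y (−0.93 and −0.81, with −0.37 in IMR-32), and *EIF2S1*, which encodes eIF2α, in both amplified lines (−0.78 and −0.58, with −0.41 in SH-SY5Y). The IMR-32 call of *EIF2S1* was lost without control replicate 5, at −0.46.

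**Figure D4:**
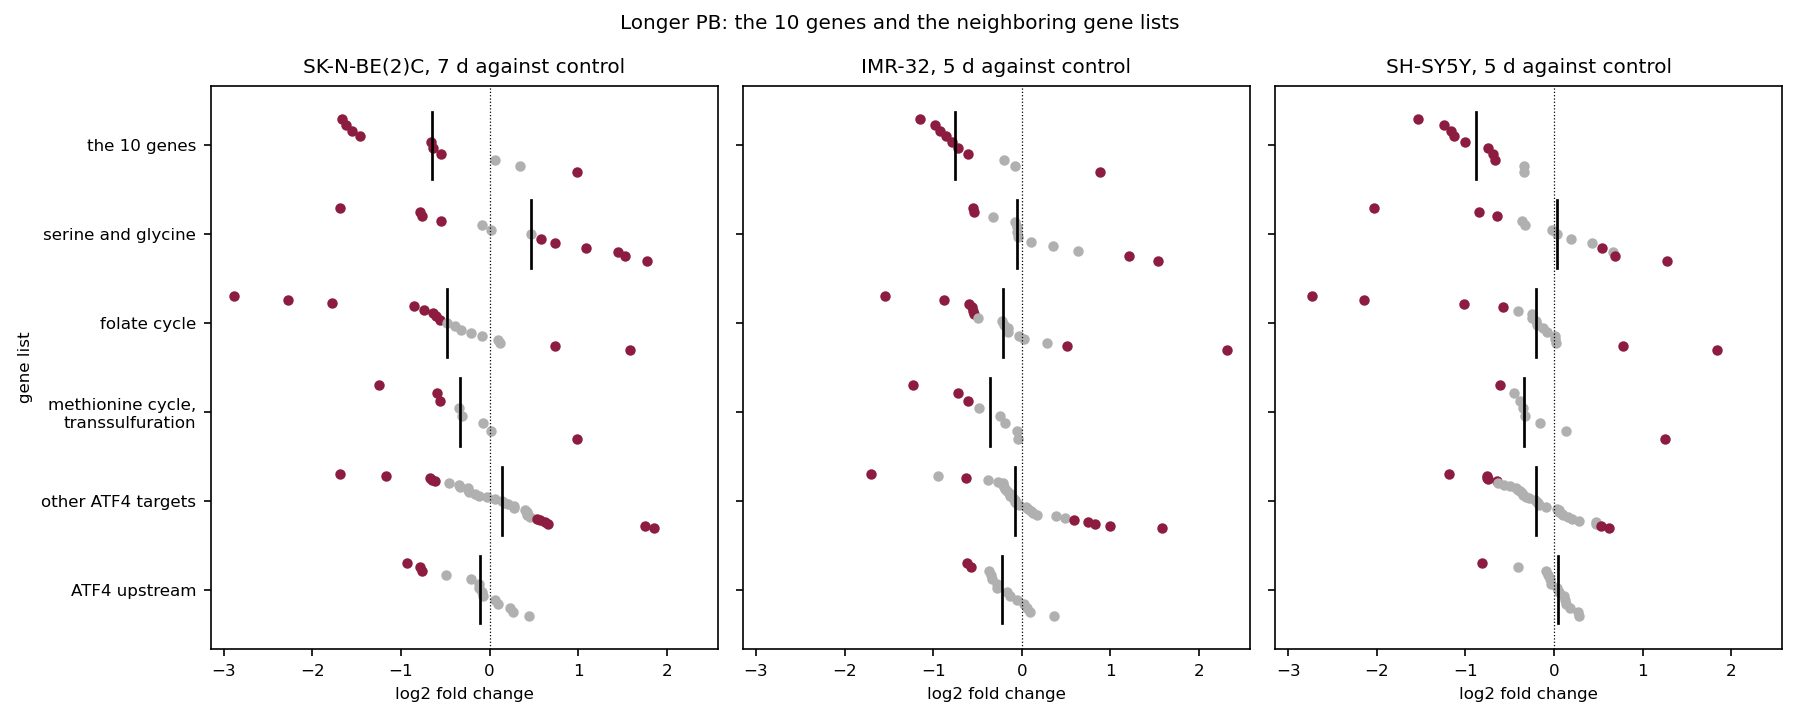
Log2 fold change of longer PB against control for the 10 genes and the genes of 5 neighboring lists (rows) in each line (panels), with dark red points for genes past both limits, gray for the rest, and a black bar at each list's median. The medians of the 10 genes (−0.65, −0.76 and −0.88) lie to the left of those of the 5 lists, whose other ATF4 targets center at 0.14, −0.07 and −0.21.

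Across the 45 libraries, with each line centered on its own mean, Pearson's r of log2 CPM over all 45 pairs of the 10 genes ran from −0.30 (*PSAT1* with *ASNS*) to 0.95 (*SHMT1* with *MTHFD1*). Among *PHGDH*, *PSAT1*, *SHMT1*, *SHMT2*, *MTHFD1*, *MTHFD2* and *MTHFD1L*, chosen here after the values were seen, all 21 pairs were at 0.70 or above. With these 7, *PSPH* was at 0.34 to 0.65 and *ASNS* at −0.30 to −0.03. With *ATF4*, r is given within each line (15 libraries). *PHGDH*, *PSAT1*, *SHMT1*, *MTHFD1*, *MTHFD2* and *MTHFD1L* had negative values with *ATF4* in SK-N-BE(2)C (−0.74 to −0.33) and positive ones in IMR-32 (0.49 to 0.76) and SH-SY5Y (0.55 to 0.81). *PSPH*, *SHMT2* and *ASNS* were positive throughout: by line, in the order used above, *PSPH* was at 0.76, 0.46 and 0.62, *SHMT2* at 0.20, 0.46 and 0.79, and *ASNS* at 0.85, 0.15 and 0.30. These libraries share their treatment groups, so the values describe how alike the patterns were over the same 9 groups and carry no test. Of 12546 other genes tested in all lines, the closest to *PHGDH* were *NASP*, a histone chaperone (0.98), *MCM6*, of the replicative helicase (0.97), and *SAE1* (0.97). Among the closest to *MTHFD1* were *SUPT16H*, of the FACT histone chaperone (0.99), and *JPT2* (0.98). *MTHFD2* was closest to the RNA-binding gene *HNRNPR*, the splicing factor gene *SF3B3* and the CTP synthase gene *CTPS1* (0.96 to 0.97), and *MTHFD1L* to *PA2G4*, *HNRNPD* and *GNB4* (0.96 to 0.97). *SHMT1* was closest to *ITPRIPL1*, *SCML1* and *NUP107* (0.96), *SHMT2* to *RBBP4*, *PLIN2* and *MBD3* (0.91 to 0.92), and *PSAT1* to *ARHGAP10*, *CTNNAL1* and *GNPNAT1* (0.91 to 0.93). The closest genes to *PSPH* were *ANAPC7*, *CSTF1* and *GALNT14* (0.73 to 0.75), to *ASNS* *PLEKHG2*, *UAP1L1* and *TRIO* (0.69 to 0.76), and to *ATF4* *GGCT*, *ZNF331* and *GPT2* (0.78 to 0.82), of which *GPT2* is on the list of other ATF4 targets.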

How the data were processed

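Poly(A) RNA was sequenced as paired-end reads from directional libraries. The authors trimmed reads with Trim Galore 0.6.4, mapped them to hg19 and deposited raw read counts per gene from STAR (2.6.1d per the submitters' processing notes). The annotation and strand column are not given in the sources used here. Deposited CPM tables and the authors' DESeq2 (1.32.0) comparison tables, which hold log2 fold changes and adjusted p-values, were not used. The counts of the 45 libraries (5 per group) were tested with edgeR 4.0.16 in R 4.3.3: genes were filtered (minimum count 10, total 15, proportion 0.7), scaled by TMM and fitted with the quasi-likelihood test over the 3 groups of a line, or over all 45 libraries for comparisons between lines, with Benjamini-Hochberg adjustment over all genes tested. Calls needed an adjusted p below 0.05 and, except for differences of response, a log2 fold change above 0.5 in size. Errors after log2 values are SE. The scripts were tested on simulated data. Totals of 13459219 to 25441812 counts per library set the precision, and the biological coefficient of variation was 13.8% in SK-N-BE(2)C, then 19.8% (IMR-32) and 11.2% (SH-SY5Y). RPKM was computed here from canonical transcript lengths in GENCODE v44 on GRCh37, and correlations used log2 CPM with a prior count of 2. No 2 replicates agreed within sampling noise (chi-square per degree of freedom 1.69 to 86.9 over 90 pairs), but SK-N-BE(2)C replicates 3, 4 and 5 were close, so summing them was tried as an alternative.

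Same-numbered libraries deviated together, with every correlation of their deviations above 0.1 in 7 of 9 comparisons within lines. The exceptions were SK-N-BE(2)C 7 d against control (lowest r 0.0969) and against 24 h (0.0475). Alternatives were RLE factors, library size alone, no filter, DESeq2 1.42.0, only the groups compared, no fold change limit, the replicate number as a block, replicates 3, 4 and 5 summed and leaving out each library or number. Those for the pathway lists were chosen after seeing the data. The 10 genes and all lists were chosen with earlier results of these data known. Besides the 10 genes, *MYCN* and *MYC*, the genes named were, for each list, up to 4 called the same way in all 3 lines with the largest mean change after longer PB, or up to 2 called so in 2 lines where there were none, and for each of the 10 the 3 genes most correlated with it. Some genes that this rule names are not reported here.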

Additional observations from a re-analysis of the deposited data

Results flagged for a closer look

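In 90 groups of 5 libraries (10 genes in 9 groups), 10 held 1 value far from the other 4 by Dixon's test at its 95% level, and chance gives about 1 in 20. In SK-N-BE(2)C replicate 1 was high for *PHGDH* in controls (444 CPM) and at 7 d (203), for *SHMT2* at 7 d (224) and for *ASNS* in controls (2.11), and replicate 3 was low for *MTHFD2* at 24 h (142). In IMR-32 replicate 5 was high for *MTHFD2* in controls (332) and at 24 h (237) and for *PSAT1* at 5 d (76.8), and control replicate 4 was low for *ASNS* (0.669). In SH-SY5Y control replicate 5 was high for *PSAT1* (122).

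Responses to PB differed between lines past an adjusted p of 0.05 for 18 differences, tested directly. At 24 h they held 2, 1 and 1 of the 10 genes in the 3 pairs of lines, beside 3.13% to 6.89% of all genes, and with longer PB 4, 7 and 3, beside 30.6% to 34.5%. As log2 differences of response at 24 h these were −0.56 for *PSAT1* and −0.70 for *MTHFD1* (IMR-32 minus SK-N-BE(2)C), −0.49 for *PSAT1* (SH-SY5Y minus SK-N-BE(2)C) and 0.67 for *SHMT1* (SH-SY5Y minus IMR-32). With longer PB, IMR-32 minus SK-N-BE(2)C gave 0.51 for *PHGDH*, 0.66 for *SHMT1*, 0.67 for *MTHFD1L* and −0.46 for *ATF4*. SH-SY5Y minus SK-N-BE(2)C gave −0.37 for *PSPH*, 1.01 for *SHMT1*, −0.43 for *SHMT2*, −0.47 for *MTHFD2*, 0.45 for *MTHFD1L*, −1.62 for *ASNS* and −0.66 for *ATF4*. SH-SY5Y minus IMR-32 gave −0.56 for *PHGDH*, −0.50 for *MTHFD2* and −1.49 for *ASNS*. SK-N-BE(2)C was treated for 7 d and the others for 5 d, so the line and the time cannot be told apart in the values that involve it.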

How the results depend on the processing

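Of 3608 recomputed values for 132 changes within a line, 3465 kept their direction and side of the limits, 89 lost a call, 35 gained one and 19 turned direction. For the control levels these were 312, 7, 10 and 1 of 330, and for the responses between lines 530, 32, 21 and 17 of 600. The causes were not tested, except that dropping the fold change limit adds calls by construction. The share of all genes called also moves with the setting and is not given in this section, so its counts are not set against all genes. With no fold change limit the counts of the 10 genes called were 8 in SK-N-BE(2)C at 24 h, 10 for its 7 d against 24 h, 4 for SH-SY5Y 5 d against 24 h and 8 for SH-SY5Y against IMR-32 controls. Without the count filter, IMR-32 5 d against 24 h had 1 called, the methionine list in IMR-32 at 5 d 5, other ATF4 targets in SH-SY5Y at 24 h 3, and the serine and glycine list in SH-SY5Y 5 d against 24 h 1. Fitting only the groups compared gave 1 for IMR-32 5 d against 24 h. By library size alone, which moved the all-gene median of SH-SY5Y against the other lines by 0.185 and 0.183, the eIF2 list in SH-SY5Y 5 d against 24 h had 0 called by edgeR's quasi-likelihood test. Responses that differed at 24 h numbered, for IMR-32 against SK-N-BE(2)C, 4 by library size, 4 by DESeq2 and 6 with the replicate number as a block, for SH-SY5Y against SK-N-BE(2)C 2 by DESeq2 and 2 with the block, and for SH-SY5Y against IMR-32 2 with the block. Beyond the calls given with the results, the block changed no call of the 10 genes or *MYCN*. The form TGATGCAA alone was in 1 of the 8 genes.

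Leaving out 1 library or replicate number gave 1 to 2 called for IMR-32 5 d against 24 h and 0 to 1 for SH-SY5Y 5 d against 24 h. Responses that differed then numbered 0 to 2, 0 to 1 and 0 to 1 at 24 h and 2 to 5, 4 to 7 and 1 to 3 with longer PB (IMR-32 against SK-N-BE(2)C, SH-SY5Y against SK-N-BE(2)C, SH-SY5Y against IMR-32). Small values turned direction: *PSPH* in SK-N-BE(2)C at 7 d (−0.00482 with replicates 3, 4 and 5 summed), *MTHFD1L* in IMR-32 5 d against 24 h (0.00947 by RLE, 0.0469 by library size, 0.00993 by DESeq2), the *MTHFD2* response with longer PB, IMR-32 against SK-N-BE(2)C (−0.00196 by RLE, −0.00185 by DESeq2), and *SHMT1* in SH-SY5Y against IMR-32 controls (0.0925 by library size). Over left-out replicates, IMR-32 gave −0.21 to 0.13 for *ASNS* at 24 h, −0.14 to 0.0699 for *ATF4* at 5 d, and for 5 d against 24 h −0.036 to 0.22 for *PSPH*, −0.12 to 0.0176 for *MTHFD2* and −0.0487 to 0.0513 for *MTHFD1L*. *MYCN* in SH-SY5Y at 5 d gave −0.0456 to 0.45. For responses of IMR-32 against SK-N-BE(2)C the ranges were −0.14 to 0.0903 for *ATF4* at 24 h and, with longer PB, −0.015 to 0.0742 for *MTHFD2* and −0.53 to 0.23 for *ASNS*. For SH-SY5Y against SK-N-BE(2)C they were −0.0767 to 0.00929 for *PSPH*, −0.0695 to 0.0564 for *MTHFD1L* and −0.0775 to 0.53 for *ASNS* at 24 h and −0.17 to 0.13 for *PHGDH* with longer PB. For SH-SY5Y against IMR-32 they were −0.00861 to 0.15 for *PSPH*, −0.52 to 0.0299 for *ASNS* and −0.17 to 0.0599 for *ATF4* at 24 h and −0.19 to 0.0498 for *PSPH* and −0.11 to 0.0868 for *MTHFD1* with longer PB. Counts were low for *ASNS* and *FTCD*, with group means of 0.900 to 2.64 and 0.427 to 5.19 CPM.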
